A study of Homo sapiens with 9 samples.

Results

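The 34 genes described here make sterols and fatty acids or control that synthesis. They were picked by gene symbol from the 58735 genes of the count table. They comprise 17 enzymes of cholesterol synthesis, 5 regulators of the sterol response element binding proteins (SREBP), 2 genes of sterol transport and 10 genes of fatty acid synthesis and its immediate use. RNA was sequenced from 786-0 cells, a clear cell renal carcinoma line that lacks VHL and carries an inactivated HIF1A, so that HIF2α is its HIFα subunit. The 3 groups had 3 libraries each: untreated wild-type cells (control), wild-type cells given 10 μM PT2385 for 48 h, and cells labelled as a HIF2α knockout (KO). All were kept for 48 h at 21% oxygen in DMEM with 5 mM glucose and 10% FBS. PT2385 keeps HIF2α from pairing with its partner HIF1β. No vehicle is named for the control, whether the KO is 1 clone is not given in the sources used here, and nothing states that the replicates of a group were separate cultures. The p-values therefore measure only the spread between these libraries, which may be technical.

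Cholesterol is built from acetyl-CoA through mevalonate, the isoprenoid farnesyl diphosphate and squalene, which is closed to lanosterol and then trimmed to cholesterol. Fatty acids are built from the same acetyl-CoA, made in the cytosol by ACLY and ACSS2. The transcription factors SREBP1 and SREBP2, encoded by SREBF1 and SREBF2, switch on the genes of both routes. When sterols are scarce, SCAP escorts the SREBP precursors from the endoplasmic reticulum to the Golgi for cleavage, and when sterols are plentiful INSIG1 and INSIG2 hold SCAP back. Clear cell renal carcinoma owes its pale cytoplasm to stored lipid and glycogen.

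Libraries held 11881000 to 14730081 counts, TMM factors lay between 0.988 and 1.02, and mitochondrial genes took 0.960% to 1.18% of counts. EPAS1, which encodes HIF2α, stood at 232 to 271 CPM (counts scaled to library size) in control. It stood at 220 to 247 CPM with PT2385 and at 20.2 to 25.1 CPM in KO. EPAS1 RNA was thus lower in KO, but its level alone cannot tell a knockout from a knockdown. The paper describes silencing of HIF2α by siRNA and no knockout line, so KO is used here as the label. The renal marker PAX8 was present at 560 to 677 CPM and VIM at 4116 to 4891 CPM in every library. Other renal markers moved. Of the 7 listed, 3 were called higher and 2 lower with PT2385, against 3.08% and 4.62% of all genes. In KO it was again 3 and 2, against 14.7% and 15.4%. Mean levels in control, PT2385 and KO were 316, 115 and 30.3 CPM for CA12 and 100, 262 and 204 CPM for CDH6. Of 15 markers of leukocytes, endothelium, fibroblasts, hepatocytes and adipocytes, LUM reached 4.18 CPM, CD14 1.23 CPM and no other marker more than 0.562 CPM. In LUM, the sole one of the 15 to pass the filter on low counts, expression was higher in KO (log2 fold change 1.16 ± 0.30, adjusted p = 0.0144, edgeR quasi-likelihood test), and any part of this in the results below was not tested. All 34 genes passed the filter in all comparisons.

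Promoters of 30 of the 34 genes were found in the RefSeq table for GRCh38.p14, each with 250 bases before and 50 after the first listed start. The letters TCACNCCAC, a form of the site that SREBP proteins bind, occurred on either strand in 1 of the 30, that of SREBF2, and in 1.15% of all 27305 promoters. The letters CCAAT, bound by NF-Y, a common partner of SREBP, occurred on either strand in 18 of the 30 and in 35.7% of all promoters. They occurred in 11 of 14 promoters of cholesterol enzymes and in 4 of 9 of the fatty acid genes. With any listed start this was 12 of 14 and 6 of 9, against 39.7% of all promoters. Of the core letters of HIF sites, ACGTG was found in 9 of the 30 (21.6% of all promoters) and GCGTG in 22 of the 30 (36.3%). By arm, GCGTG occurred in 12 of 14 promoters of cholesterol enzymes and in 5 of 9 of the fatty acid genes. ACGTG occurred in 2 of 14 and 2 of 9. These are letter matches in a short window, base composition also sets how often they occur, and nothing was measured on binding.

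The stretches below show the SREBP-type match of SREBF2 and the upstream CCAAT matches of a few picked genes. Of the genes called between groups in the results, only EBP is among them. In the promoters of INSIG2, PMVK and ELOVL6, also called, no CCAAT was found. Capitals mark TCACNCCAC and, on either strand, CCAAT (written ATTGG on the other strand). All stretches lie upstream of the start and are written 5′ to 3′ on the strand of the gene.
SREBF2 (chr22:41832942-41833033, plus strand): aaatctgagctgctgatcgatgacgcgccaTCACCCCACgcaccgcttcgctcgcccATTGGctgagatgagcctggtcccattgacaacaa
INSIG1 (chr7:155297678-155297742, plus strand): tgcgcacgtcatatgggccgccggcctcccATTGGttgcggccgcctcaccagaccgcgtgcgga
HSD17B7 (chr1:162790620-162790684, plus strand): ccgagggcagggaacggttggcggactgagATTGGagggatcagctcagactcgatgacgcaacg
LSS (chr21:46228890-46228954, minus strand): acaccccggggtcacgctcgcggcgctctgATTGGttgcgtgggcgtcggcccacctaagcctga
MSMO1 (chr4:165327454-165327668, plus strand): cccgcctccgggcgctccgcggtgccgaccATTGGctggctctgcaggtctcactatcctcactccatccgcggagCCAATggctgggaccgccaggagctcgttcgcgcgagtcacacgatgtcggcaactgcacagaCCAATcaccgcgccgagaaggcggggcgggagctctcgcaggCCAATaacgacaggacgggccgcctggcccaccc
EBP (chrX:48521587-48521807, plus strand): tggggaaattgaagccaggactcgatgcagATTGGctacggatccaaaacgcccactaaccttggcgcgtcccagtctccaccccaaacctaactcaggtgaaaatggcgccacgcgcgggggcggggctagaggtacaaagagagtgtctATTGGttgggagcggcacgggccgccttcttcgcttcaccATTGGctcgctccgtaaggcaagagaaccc
SCD (chr10:100346983-100347081, plus strand): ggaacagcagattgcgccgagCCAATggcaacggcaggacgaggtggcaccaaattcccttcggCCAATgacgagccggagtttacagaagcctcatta
MSMO1 held 4 CCAAT matches and EBP 3, while the stretches of INSIG1, HSD17B7 and LSS held 1 each. HSD17B7 has a further match after its start, which is not printed.

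Together the 34 genes took 0.841%, 0.817% and 0.598% of all counts in control replicates 1, 2 and 3. With PT2385 the shares were 0.687%, 0.649% and 0.492%, and in KO they were 0.795%, 0.965% and 0.443%. In each group the library numbered 3 was the lowest. Per kilobase of exon, mean levels in control ran from 2.74 ± 0.37 CPM (SD, n = 3) for CYP51A1, which removes a methyl group from lanosterol, to 137 ± 40.4 CPM for INSIG1. The levels per kilobase of FASN (128 ± 23.7 CPM), SCD (127 ± 51.6 CPM) and ACLY (124 ± 5.93 CPM) lay within the SD of INSIG1. The heatmap of all 34 genes shows how the libraries differed.

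**Figure D1:**
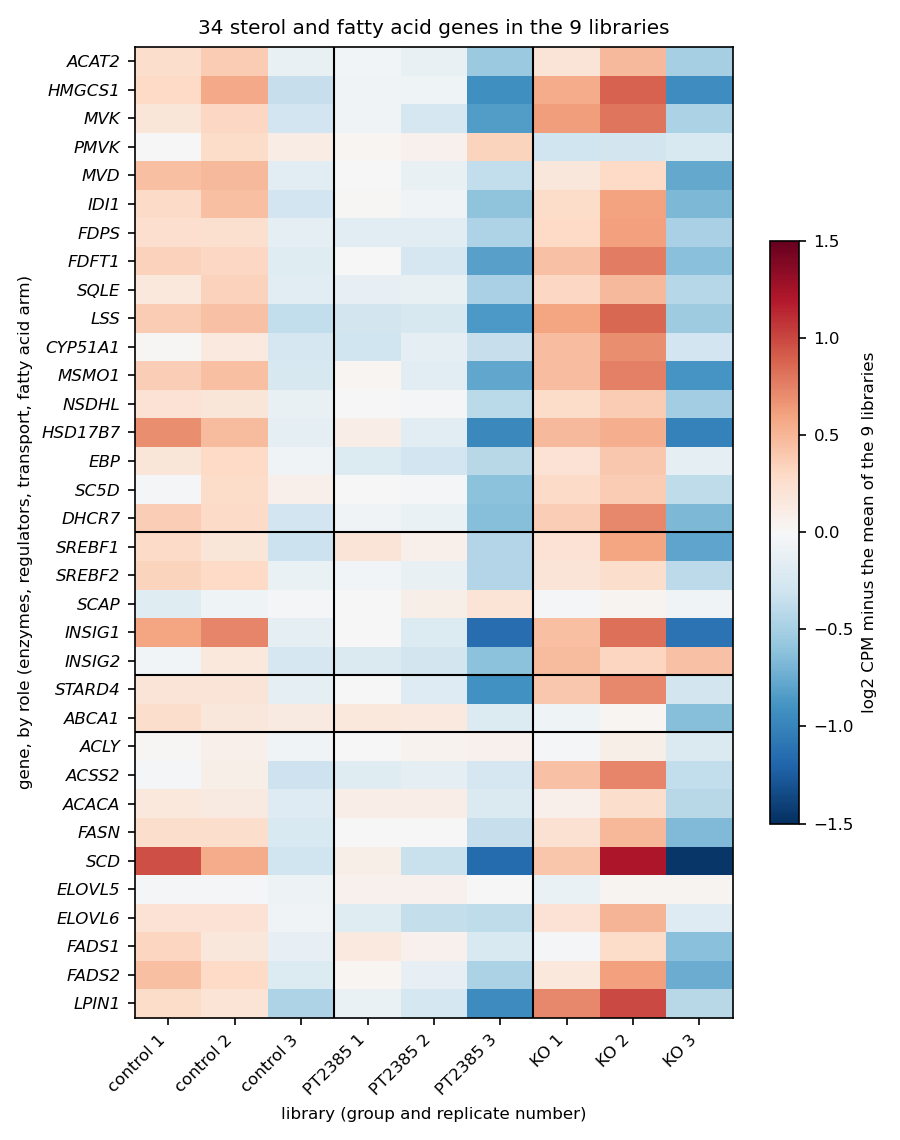
Each row is a gene, ordered by role (17 cholesterol enzymes, 5 regulators, 2 transport genes, 10 fatty acid genes), each column a library, and the colour is the log2 CPM minus the mean of that gene over the 9 libraries. The columns numbered 3 are blue for most genes, most strongly in PT2385 and KO, and KO replicate 2 is the reddest column.

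The cholesterol enzymes, summed, reached 1979, 2134 and 1390 CPM in control replicates 1, 2 and 3. They reached 1537, 1476 and 1033 CPM with PT2385, and 2145, 2577 and 1064 CPM in KO. The PT2385 sum was below the control sum at each replicate number, while the KO sums lay above control at numbers 1 and 2 and below it at number 3. The 10 fatty acid genes summed to 4429, 4150 and 3071 CPM in control, 3560, 3385 and 2775 CPM with PT2385, and 3989, 5088 and 2376 CPM in KO. In both arms the KO group had the widest spread.

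**Figure D2:**
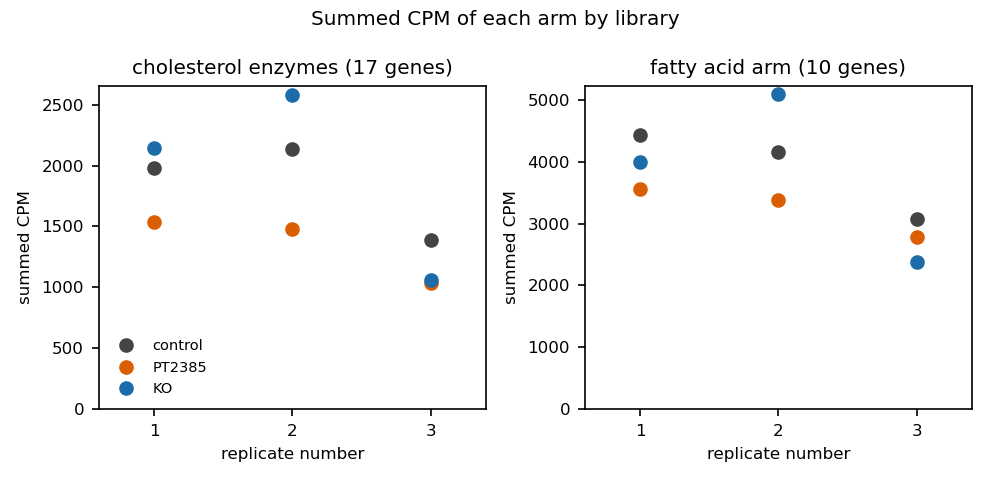
Summed CPM (y axis, from 0) of the 17 cholesterol enzymes and the 10 fatty acid genes, by replicate number (x axis), with 1 point for each library and a colour for each group. All 3 groups are lowest at number 3, where the cholesterol sums of PT2385 (1033 CPM) and KO (1064 CPM) nearly coincide.

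The first comparison asked what the HIF2α antagonist did to these genes. With PT2385, EBP, the isomerase that moves a double bond in the sterol ring, and ELOVL6, which lengthens saturated fatty acids, fell, and no gene rose. EBP stood at 88.2, 95.9 and 74.8 CPM in control and at 67.2, 63.8 and 58.3 CPM with PT2385. The groups did not overlap, and the log2 fold change was -0.46 ± 0.09 (SE; adjusted p = 0.0114, edgeR quasi-likelihood test with Benjamini-Hochberg adjustment over all genes). ELOVL6 stood at 107, 107 and 88.6 CPM in control and at 81.2, 71.9 and 70.5 CPM with PT2385. Here too the groups were apart, with a log2 fold change of -0.44 ± 0.09 (adjusted p = 0.00924, edgeR). These 2 of 34 compare with 7.70% of the 15089 genes tested that were called in either direction, and with 3.08% called higher and 4.62% called lower. The groups did not overlap for 2 of the 34 genes in the higher direction (13.4% of all genes) and for 3 in the lower direction (12.5%).

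Most of the differences that did not pass pointed down. In all, 30 of the 34 log2 fold changes were below 0, with a median of -0.38 against 0.00 over all genes tested. By number, 28 of 34 genes were lower with PT2385 in each of the 3 pairs of libraries that share a replicate number, against 23.1% of all genes. The higher ones in all 3 pairs were SCAP and ELOVL5, 2 of 34 against 25.1% of all genes. The median was -0.42 for the cholesterol enzymes and -0.19 for the fatty acid genes, 0.23 apart on the log2 scale. The test above had no term for the replicate number. With the number as a block, 24 of the 34 genes were called, 23 of them lower, against 15.3% of all genes. That fit stayed an alternative, because over all genes the libraries numbered 2 did not deviate together. A library that lies between the others of its group has small deviations, so this criterion cannot exclude pairing.

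INSIG1, whose protein holds SCAP back when sterols are plentiful, stood at 556, 614 and 335 CPM in control and at 367, 319 and 167 CPM with PT2385. The lowest control library lay within the PT2385 range, and the log2 fold change of -0.82 ± 0.25 did not pass (adjusted p = 0.0765, edgeR). SCD, the desaturase that makes oleate, stood at 920, 694 and 381 CPM in control and at 498, 373 and 211 CPM with PT2385. The groups overlapped and the test did not call the difference (log2 fold change -0.89 ± 0.30, adjusted p = 0.107, edgeR). Between libraries of the same number, however, the SCD differences were close to each other, at -0.88, -0.90 and -0.85. For LSS, which closes the first sterol ring system, those differences were -0.66, -0.68 and -0.49, with a log2 fold change of -0.63 ± 0.20 (adjusted p = 0.0764, edgeR). HSD17B7, a ketoreductase late in the route, had -0.68 ± 0.24 (adjusted p = 0.125, edgeR). It has a near-identical pseudogene copy, so its counts are less certain.

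At the mevalonate end of the pathway, HMGCS1, which makes the precursor of mevalonate, had a log2 fold change of -0.52 ± 0.23, and ACAT2, which starts the route, -0.42 ± 0.14. MVD, the decarboxylase that yields isopentenyl diphosphate, had -0.44 ± 0.15. The kinase PMVK, which acts just before it, had 0.02 ± 0.12. PMVK was the sole cholesterol enzyme with a log2 fold change above 0. At the squalene stage FDFT1 had -0.50 ± 0.18 and SQLE -0.36 ± 0.12. None of these passed the test, with adjusted p between 0.0993 (MVD) and 0.949 (PMVK) in edgeR.

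Of the 5 regulators none was called. SREBF2 stood at 378, 368 and 280 CPM in control and at 293, 277 and 222 CPM with PT2385, a log2 fold change of -0.38 ± 0.12 (adjusted p = 0.0828, edgeR). SREBF1 stood at 130, 120 and 85.1 CPM in control and at 121, 112 and 78.6 CPM with PT2385. SREBF1 thus differed by less than its replicates did, at -0.11 ± 0.16. SCAP stood at 91.3, 99.1 and 102 CPM in control and at 103, 110 and 119 CPM with PT2385, and its groups did not overlap (log2 fold change 0.18 ± 0.07, adjusted p = 0.182, edgeR). INSIG2 stood at 21.6, 24.7 and 18.7 CPM in control and at 19.1, 18.4 and 14.5 CPM with PT2385 (log2 fold change -0.33 ± 0.13, adjusted p = 0.185, edgeR). The INSIG2 groups overlapped.

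Within the fatty acid arm the log2 fold changes ran from -0.89 for SCD to 0.08 for ELOVL5. ACLY, which makes cytosolic acetyl-CoA from citrate, stood at 649, 678 and 616 CPM in control and at 645, 665 and 668 CPM with PT2385. Its log2 fold change was 0.02 ± 0.05. ACACA, which makes malonyl-CoA, had -0.05 ± 0.10, and FASN, the fatty acid synthase, -0.24 ± 0.12. FADS2, a desaturase of polyunsaturated fatty acids, had -0.38 ± 0.15 and LPIN1, a phosphatidate phosphatase, -0.44 ± 0.21. None of these 5 passed the test.

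The number of calls depended on single libraries. Without control replicate 3, 12 of the 34 genes were called and all were lower, against 4.73% of all genes called in that fit. Without PT2385 replicate 1, 14 were called and all were lower, against 9.43% of all genes. Without control replicate 1 or 2 none was called (4.25% and 3.75% of all genes), and EBP then had an adjusted p of 0.0514 or 0.0801 and ELOVL6 of 0.0519 or 0.0715 (edgeR). Without PT2385 replicate 2 only EBP was called (1 gene, against 3.72% of all genes; ELOVL6 adjusted p = 0.0601). With the number 3 libraries of both groups left out, an alternative added after the data were seen, 20 genes were called and all were lower, including INSIG1 (log2 fold change -0.77) and SCD (-0.89), against 6.92% of all genes.

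**Figure D3:**
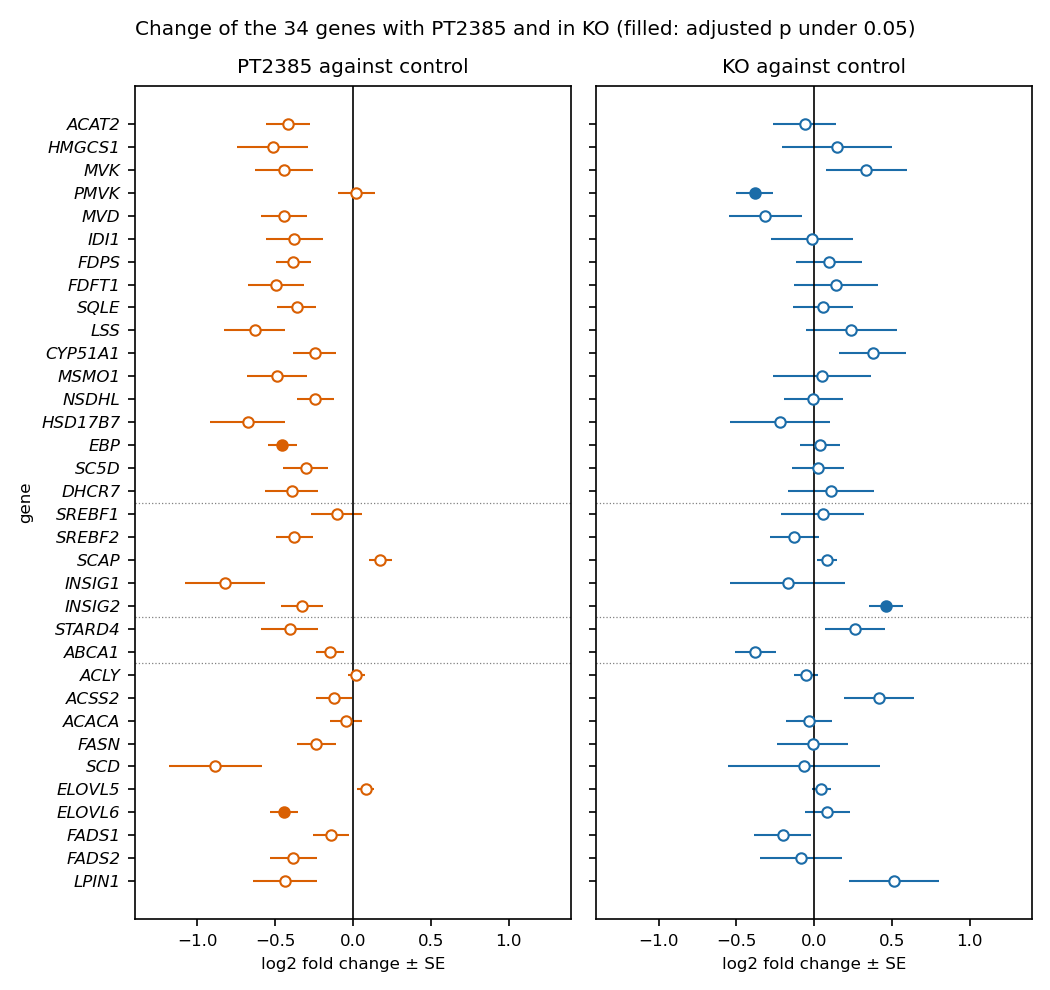
Log2 fold change (x axis) with its SE for each of the 34 genes, PT2385 against control on the left and KO against control on the right, in the order of the heatmap; filled points have an adjusted p under 0.05 (edgeR). On the left 30 of 34 points lie below 0, on the right 15 of 34, and the filled points are EBP and ELOVL6 on the left and PMVK and INSIG2 on the right.

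The second comparison asked how the cells labelled as a HIF2α knockout differed from control in the same genes. In KO cells INSIG2 rose and PMVK, which phosphorylates mevalonate phosphate, fell, and no other gene of the 34 passed the test. INSIG2 stood at 30.8, 27.8 and 30.2 CPM in KO, above the highest control library of 24.7 CPM, with a log2 fold change of 0.46 ± 0.11 (adjusted p = 0.00866, edgeR). PMVK stood at 13.7, 16.6 and 14.8 CPM in control and at 11.2, 11.4 and 11.8 CPM in KO. These groups were apart as well, and the log2 fold change was -0.38 ± 0.12 (adjusted p = 0.0302, edgeR). Against these 2 of 34, 30.1% of the 15192 genes tested were called in this comparison, 14.7% higher and 15.4% lower. The groups did not overlap for 1 of the 34 in the higher direction (21.0% of all genes) and for 2 in the lower direction (23.0%). Both counts of the 34 lie under the background.

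ABCA1, the pump that exports cholesterol from the cell, stood at 709, 667 and 649 CPM in control and at 565, 602 and 380 CPM in KO. All KO libraries lay below all control libraries, but the log2 fold change of -0.38 ± 0.13 fell short of the threshold (adjusted p = 0.0530, edgeR). Without KO replicate 3, the lowest, ABCA1 had -0.20 (adjusted p = 0.0201), a smaller difference that then passed. It passed as well without KO replicate 2 (-0.50, adjusted p = 0.0135), with all 9 libraries in a single model (-0.39, adjusted p = 0.0491, all edgeR) and with DESeq2 (-0.38, adjusted p = 0.0104). INSIG2 kept its call without any 1 library. PMVK lost it without control replicate 2 (adjusted p = 0.128), control replicate 3 (0.0680), KO replicate 1 (0.0884) or KO replicate 2 (0.0650; all edgeR), and with DESeq2 (0.0656).

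For most of the other genes, the KO libraries lay on both sides of control. The median log2 fold change over the 34 was 0.04, with 19 above and 15 below 0. Split by number, 17 of 34 differences were above 0 at number 1, 30 of 34 at number 2 and 3 of 34 at number 3. Across all 3 numbers, 2 genes were higher (29.9% of all genes) and 4 lower (31.4%). All 10 fatty acid genes were above control at number 2, with a median difference of 0.26, and all 17 cholesterol enzymes were below control at number 3, with a median of -0.39. SCD stood at 630, 1094 and 171 CPM in KO, which holds both its highest and its lowest library of the 9, a 6.41-fold range. INSIG1 stood at 505, 653 and 171 CPM in KO. In both genes the KO values span those of control, and the log2 fold changes of -0.07 ± 0.49 for SCD and -0.17 ± 0.37 for INSIG1 have wide errors.

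Without KO replicate 3, 14 of the 34 genes were called, 12 of them higher in KO, against 32.7% of all genes called in that fit. The higher ones included MVK, mevalonate kinase (log2 fold change 0.64), CYP51A1 (0.62), LSS (0.55), HMGCS1 (0.52) and, outside the enzymes, STARD4 (0.50), which carries cholesterol between membranes. ACSS2, which makes acetyl-CoA from acetate, had 0.67 and LPIN1 0.83. The lower ones were PMVK and ABCA1. This fit kept control replicate 3, itself the lowest control library for most of the 34 genes, so its groups were unbalanced in replicate number. At numbers 1 and 2 the differences were 0.45 and 0.49 for MVK and 0.44 and 0.55 for CYP51A1. They were 0.21 and 0.42 for LSS and 0.26 and 0.32 for HMGCS1. Without number 3 of both groups 11 genes were called, 9 of them higher, against 28.6% of all genes. Whether KO replicate 3 or the 2 other KO libraries stand for the knockout cannot be told apart with 3 libraries.

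SREBF1 stood at 124, 160 and 61.5 CPM in KO and SREBF2 at 344, 361 and 228 CPM. Both ranges overlapped control, with log2 fold changes of 0.05 ± 0.27 and -0.13 ± 0.16. SCAP stood at 102, 106 and 99.4 CPM in KO, a log2 fold change of 0.08 ± 0.06. None of the 3 passed the test (adjusted p of 0.908, 0.588 and 0.377, edgeR).

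**Figure D4:**
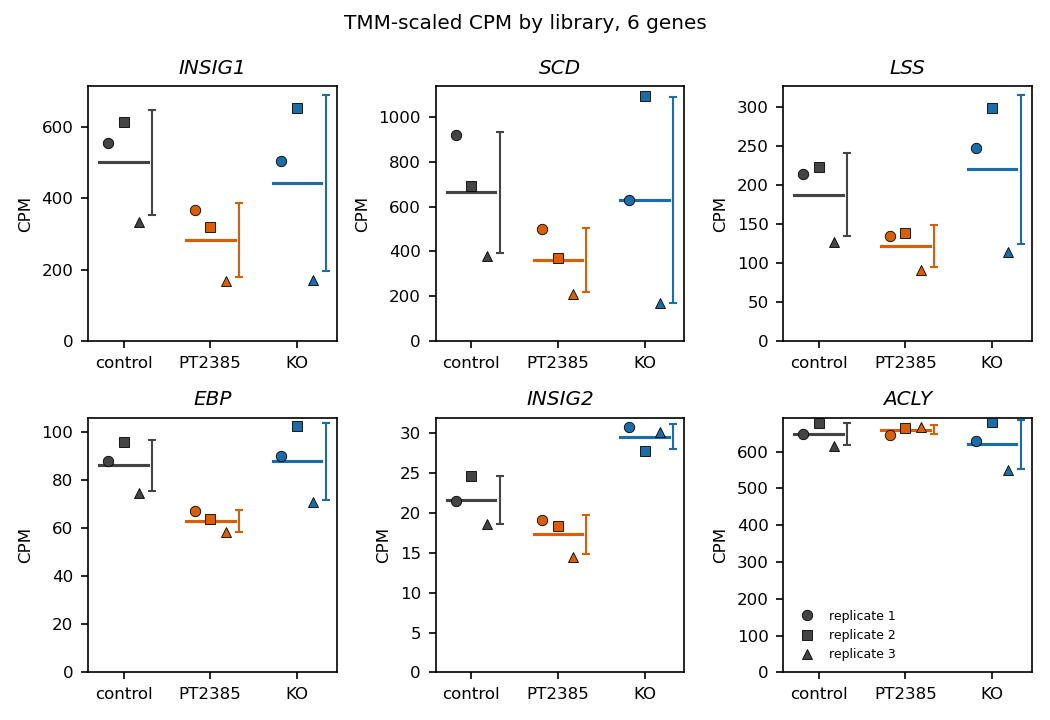
TMM-scaled CPM (y axis, from 0) of INSIG1, SCD, LSS, EBP, INSIG2 and ACLY in each library, with markers for the replicate number, a line at the group mean and a bar of 1 SD (n = 3). INSIG1, SCD and LSS are lowest at number 3 in all 3 groups, EBP is low in all PT2385 libraries, INSIG2 is high in all KO libraries, and ACLY lies between 550 and 681 CPM throughout.

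Setting KO directly against PT2385 asked whether the drug and the knockout left these genes at different levels. INSIG2 (log2 fold change 0.77 ± 0.12, adjusted p = 0.00126), EBP (0.48 ± 0.12, adjusted p = 0.0188) and ELOVL6 (0.51 ± 0.14, adjusted p = 0.0316) were higher in KO, and PMVK (-0.42 ± 0.12, adjusted p = 0.0355, all edgeR) was lower. Against these 4 of 34, 18.8% of the 15402 genes tested were called, 8.47% higher and 10.3% lower. The groups did not overlap for 2 of the 34 in the higher direction (16.6% of all genes) and for 1 in the lower direction (18.5%). EBP stood at 90.3, 103 and 71.0 CPM in KO, above all PT2385 libraries, and INSIG2 in KO was likewise above all of them. ELOVL6 stood at 107, 131 and 80.8 CPM in KO, where the lowest KO library lay just under the highest PT2385 library of 81.2 CPM. PMVK stood at 14.1, 14.4 and 17.4 CPM with PT2385, above all KO libraries.

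The median log2 fold change of the 34 genes between KO and PT2385 was 0.42, against 0.00 over all genes, and 27 of 34 were above 0. It was 0.46 for the cholesterol enzymes and 0.24 for the fatty acid genes. By number, 27 of 34 genes were higher in KO at number 1, 30 of 34 at number 2 and 15 of 34 at number 3. Across all 3 numbers, 14 genes were higher in KO (26.5% of all genes) and 3 lower (28.2%). LPIN1 had the highest log2 fold change, 0.93 ± 0.30 (adjusted p = 0.0549, edgeR), followed by LSS with 0.85 ± 0.29 (adjusted p = 0.0619). Without KO replicate 3, 27 of the 34 genes were called, 26 of them higher in KO, against 20.3% of all genes. Leaving out number 3 of both groups also gave 27, with 26 higher, against 22.0% of all genes. Without PT2385 replicate 2 or 3, or KO replicate 1 or 2, the call that held was that of INSIG2 (1 gene each time, against 11.6% to 15.4% of all genes). DESeq2 also called 4 genes, all higher in KO, with CYP51A1 (adjusted p = 0.0321) in place of PMVK (adjusted p = 0.0666).

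**Figure D5:**
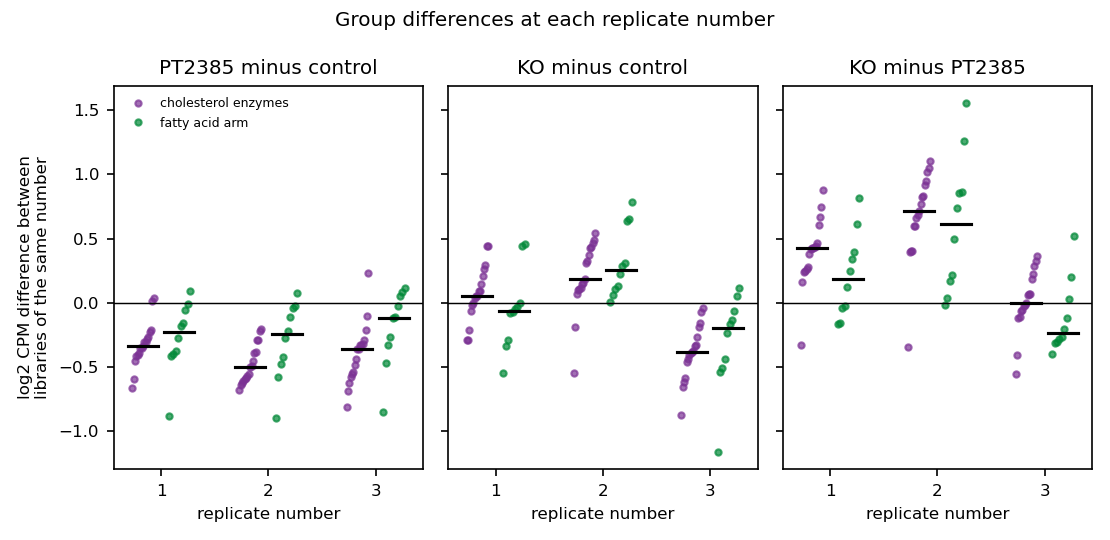
Difference in log2 CPM (y axis) between the libraries of the same replicate number (x axis), for each cholesterol enzyme and each fatty acid gene, with the median as a line. PT2385 minus control is below 0 for most genes at every number (medians of -0.34, -0.50 and -0.36 for the cholesterol enzymes), while KO minus control goes from a median of 0.19 at number 2 to -0.39 at number 3.

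The last comparisons asked how far the replicate number itself went with these genes, in a model of all 9 libraries with the group as a term. What a number stands for is not given in the sources used here. In the libraries numbered 3, compared with those numbered 1, 25 of the 34 genes fell and none rose (edgeR, adjusted p under 0.05), against 6.14% of the 16128 genes tested called in either direction, 3.42% higher and 2.73% lower. DESeq2 called 22 of the 34, all lower, against 6.18% of the genes to which it gave an adjusted p. The 25 comprised 14 of 17 cholesterol enzymes, 3 of 5 regulators, both transport genes and 6 of 10 fatty acid genes. The median log2 fold change was -0.52 over the 34 genes, -0.63 for the cholesterol enzymes and -0.43 for the fatty acid genes, against 0.00 over all genes.

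SCD had the log2 fold change furthest from 0 (-1.42 ± 0.24, adjusted p = 0.00687), followed by INSIG1 (-1.12 ± 0.14, adjusted p = 0.00195) and HSD17B7 (-1.11 ± 0.14, adjusted p = 0.00168, all edgeR). HMGCS1 followed with -0.98 ± 0.13. HSD17B7 stood at 33.1, 28.3 and 18.6 CPM in control, at 21.9, 18.1 and 10.5 CPM with PT2385 and at 28.5, 29.8 and 10.1 CPM in KO, lowest at number 3 each time. LSS stood at 214, 222 and 126 CPM in control, at 135, 139 and 90.3 CPM with PT2385 and at 248, 299 and 113 CPM in KO, the same pattern (log2 fold change -0.82 ± 0.10, adjusted p = 0.00168). Among the regulators SREBF1 (-0.74 ± 0.12), SREBF2 (-0.47 ± 0.06) and INSIG1 fell, while SCAP (0.11 ± 0.06) and INSIG2 (-0.19 ± 0.11) did not pass.

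Of the fatty acid arm, LPIN1 (-0.90 ± 0.10), FADS2 (-0.67 ± 0.13), FASN (-0.56 ± 0.10), FADS1 (-0.47 ± 0.09) and ACACA (-0.39 ± 0.06) fell together with SCD. ACLY (-0.07 ± 0.05), ELOVL5 (0.01 ± 0.06), ELOVL6 (-0.29 ± 0.09) and ACSS2 (-0.39 ± 0.14) did not pass. ELOVL5 lengthens polyunsaturated fatty acids and was the steadiest of the 34 genes over the 9 libraries, with a highest value 1.12 times its lowest. ACLY had 1.24 times. The cholesterol enzymes that did not pass were PMVK (0.17 ± 0.11), CYP51A1 (-0.37 ± 0.14) and SC5D (-0.39 ± 0.12), a desaturase of the sterol ring.

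Set against number 2, the libraries numbered 3 had 24 of the 34 genes lower and none higher, against 1.07% of all genes called, 0.422% higher and 0.651% lower. These 24 were among the 25 above, and ABCA1 was the one left out (adjusted p = 0.0514, edgeR). DESeq2 called 26 of the 34, all lower and ABCA1 among them (adjusted p = 0.00989), against 1.86% of the genes to which it gave an adjusted p. Between numbers 2 and 1 no gene of the 34 and no gene of all 16128 was called by edgeR (0.00%), with 0 of the 34 and 1024 of all genes at an unadjusted p under 0.05. DESeq2 called 1 gene, which was none of the 34. In each group the number 3 library was the lowest of the 3 for 31 of the 34 genes, against 34.2% of all genes in control, 36.2% with PT2385 and 38.1% in KO.

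The drop at number 3 was present in each group. From number 1 to number 3 the median difference of the 34 genes was -0.41 in control, -0.40 with PT2385 and -0.79 in KO. From number 2 to number 3 it was -0.45, -0.36 and -1.03. With 1 library for each group and number, whether the groups differ in this drop could not be tested. As a description, the replicate number took a median of 62.0% of the sum of squares of log2 CPM of the 34 genes and the group 25.9%, whereas over all genes the medians were 17.4% and 48.9%. The number took more than the group in 26 of the 34 genes (76.5%) and in 29.4% of all genes. The group took more in the other 8, which are INSIG2 (83.2%), PMVK (76.5%), EBP (63.9%) and ELOVL6 (57.3%), the genes called between groups, and SCAP (54.8%), ABCA1 (42.6%), CYP51A1 (42.0%) and ELOVL5 (38.3%), which were not called.

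The 25 lower genes depended on the libraries used. Without PT2385 replicate 1 the count was 4 (LSS, HSD17B7, SREBF2 and LPIN1), against 0.118% of all genes, and without control replicate 1 it was 14, against 0.468%. Without the PT2385 group it was 10 (0.228% of all genes) and without the control group 15 (0.382%), all of them lower. Without the KO group it was 24 (6.99%).

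Genes around the pathway were counted in the same fit, where 3.42% of all genes were called higher and 2.73% lower. Of 15 other isoprenoid and sterol genes, 2 were lower and 1 higher at number 3 than at number 1, with LIPA, the lysosomal lipase that frees cholesterol, at -0.33 ± 0.06 (adjusted p = 0.00982). Of 9 genes of SREBP processing and sterol sensing none was called. Of 20 other genes of fatty acid synthesis and activation tested, 4 were lower and 1 higher, with ACSL3, an acyl-CoA synthetase, at -0.54 ± 0.08 (adjusted p = 0.00342) and MID1IP1, an activator of acetyl-CoA carboxylase, at -0.37 ± 0.08 (adjusted p = 0.0223, all edgeR). None of 15 fatty acid oxidation genes was called. Of 12 proliferation genes 4 were higher, the replication genes MCM3 (0.32 ± 0.05), PCNA (0.27 ± 0.06), MCM2 (0.24 ± 0.05) and MCM6 (0.20 ± 0.05). The part of proliferation in the drop of the 34 genes was not tested.

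For 8 of the 34 genes, exons overlap those of another counted gene, and the strand setting of the counting is not given in the sources used here. FADS1 and FADS2 share 490 bases with each other, ACAT2 shares 454 with TCP1, SREBF1 556 with RAI1, FDPS 693 with RUSC1-AS1, SREBF2 731 with SREBF2-AS1, MVK 225 with MMAB and CYP51A1 108 with AKAP9. CYP51A1 has the lowest count relative to its partner, with 1413 counts over the 9 libraries against 14209 for AKAP9.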

How the data were processed

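Reads were processed by the authors, who checked and trimmed them (cutadapt), aligned them to hg38 with STAR and counted them per gene with featureCounts, per the labels and the methods. The deposited values are raw counts without normalization, and each of the 9 columns was matched to its sample by name. Of 58735 gene identifiers, 58207 were paired with a symbol through GENCODE. Counts were scaled by TMM and given as CPM. log2 CPM used a prior count of 2.

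Each pair of groups was compared over its own 6 libraries with edgeR 4.0.16 in R 4.3.3: filterByExpr (minimum 10 counts), the quasi-likelihood F test in the default form of that version, and p-values adjusted by Benjamini-Hochberg across the whole table. A gene was called at an adjusted p under 0.05. Replicate numbers were compared over all 9 libraries with the group as a term. The standard error is the absolute log2 fold change divided by the square root of F. The scripts were tested on simulated data. The fit of replicate numbers made more false calls there than the threshold allows, and the counts of DESeq2 1.42.0 over the 34 genes are given beside it.

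The members and lists were chosen with earlier results of these data known. By the rule, every one of the 34 genes may be named, with values in each library for called genes, the regulators and ABCA1, and up to 3 called genes of each other list. The library values of SCD, LSS, HSD17B7 and ACLY were added after their values were seen. The alternatives were DESeq2, other scalings, other filters, a stricter threshold, a test against a 1.5-fold change, a block for the replicate number, a single model of all 9 libraries and leaving out libraries. The values of 1 gene are not reported here.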

Additional observations from a re-analysis of the deposited data

Results flagged for a closer look

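For 4 of the 34 genes the effect of KO and the effect of PT2385, both taken against the same control libraries, differed when KO and PT2385 were tested directly (edgeR quasi-likelihood test, adjusted over all genes). Of all genes tested 18.8% were called in that comparison, so 4 of 34 lies under the share of all genes. INSIG2 had a log2 fold change of 0.46 in KO and -0.33 with PT2385, a difference of 0.77 ± 0.12 (adjusted p = 0.00126), and it was higher in KO at all 3 replicate numbers. EBP had 0.04 in KO and -0.46 with PT2385, a difference of 0.48 ± 0.12 (adjusted p = 0.0188). ELOVL6 had 0.08 in KO and -0.44 with PT2385, a difference of 0.51 ± 0.14 (adjusted p = 0.0316). PMVK had -0.38 in KO and 0.02 with PT2385, a difference of -0.42 ± 0.12 (adjusted p = 0.0355). EBP and ELOVL6 were higher in KO, and PMVK lower, at all 3 numbers too. Of all genes 26.5% were higher and 28.2% lower at all 3 numbers. The calls of EBP, ELOVL6 and PMVK were each lost in 4 of the fits without 1 library, and that of INSIG2 in 0. DESeq2 did not call PMVK.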

How the results depend on the processing

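Counts of called genes among the 34 were sensitive to the settings. For PT2385 against control the 2 calls became 6 with DESeq2 (7.10% of all genes called) and 22 with no filter on low counts (5.99%). They became 1 at an adjusted p under 0.01 (3.42%) and 0 against a 1.5-fold change (1.14%). With all 9 libraries in a single model 1 was called (6.09%), and without 1 library 0 to 14 (3.72% to 9.43%). For KO against control the 2 calls became 11 with no filter (18.1%) and 1 at an adjusted p under 0.01 (18.4%). They became 0 against a 1.5-fold change (5.81%) and 1 to 14 without 1 library (21.4% to 32.7%). For KO against PT2385 the 4 calls became 26 (12.4%), 1 (10.8%) and 0 (3.43%) in that order. They became 7 with all 9 libraries in a single model (21.9%), and 1 to 27 without 1 library (11.6% to 20.3%). The 25 calls at number 3 against 1 became 0 against a 1.5-fold change (0.00620% of all genes) and 4 to 28 without 1 library (0.118% to 10.6%). They became 15 without the control group (0.382%) and 10 without the PT2385 group (0.228%). The 24 at number 3 against 2 became 0 against a 1.5-fold change (0.00% of all genes). Between numbers 2 and 1, leaving out the KO group gave 1 call (0.0321% of all genes). This was SCD, whose difference then reversed to -0.41 on the log2 scale (adjusted p = 0.00430, edgeR).

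The replicate number as a block gave 24 calls for PT2385 (23 lower; 15.3% of all genes called), 6 for KO (36.2%) and 21 for KO against PT2385 (24.6%). The blocked adjusted p with PT2385 was 8.46e-10 for SCD, 2.86e-07 for INSIG1 and 1.18e-06 for LSS (edgeR). Blocked with all 9 libraries, an alternative chosen after seeing the data, these were 18 (10.7%), 5 (36.0%) and 22 (29.1%). Over 15655 genes, libraries of the same number deviated together at numbers 1 and 3 (r from 0.132 to 0.222). At number 2 they did not (r from -0.0142 to 0.0324), so the numbers were not taken as pairs. Between numbers 1 and 3 of different groups r ran from -0.223 to -0.127. Deviations from a group mean are small in a library between the others, so a low r at number 2 cannot exclude pairing. Leaving out both libraries of number 1, 2 or 3, also added later, gave 2, 0 and 20 calls for PT2385 (5.69%, 1.83% and 6.92% of all genes), 0, 2 and 11 for KO (16.2%, 18.4% and 28.6%), and 1, 1 and 27 for KO against PT2385 (9.17%, 8.99% and 22.0%). The cause of these shifts was not tested. The median of the cholesterol enzymes minus that of the fatty acid genes kept its sign in 4 comparisons under the alternatives run, but ran from -0.04 to 0.14 for KO against control and from -0.02 to 0.11 for number 2 against 1. Depth limits PMVK, CYP51A1 and ACSS2 most, which had 1413 to 2264 counts over the 9 libraries.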

Other observations

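Other lipid genes were counted in the same comparisons. Of 15 fatty acid oxidation genes, 5 rose and 2 fell in KO against control, where 14.7% of all genes were called higher and 15.4% lower. With PT2385 1 of the 15 rose and 0 fell, against 7.70% of all genes called in either direction. CPT1A, which admits fatty acids to mitochondria, stood at 8.06, 11.9 and 11.7 CPM in control, at 14.6, 16.9 and 20.8 CPM with PT2385 and at 39.8, 33.9 and 49.6 CPM in KO, with no overlap between the groups. Its log2 fold change was 0.72 ± 0.17 with PT2385 (adjusted p = 0.0198) and 1.97 ± 0.17 in KO (adjusted p = 7.86e-06, edgeR). PPARA, a transcription factor of fatty acid oxidation, rose by 0.69 ± 0.10 in KO, while ETFA, an electron carrier of that route, had -0.64 ± 0.08. ACSL5, an acyl-CoA synthetase, stood at 2.83 to 3.29 CPM in control and 13.8 to 15.7 CPM in KO (log2 fold change 2.26 ± 0.15, adjusted p = 7.73e-07). SOAT1, which esterifies cholesterol for storage, fell in both comparisons, by 0.23 on the log2 scale with PT2385 (adjusted p = 0.0255) and by 0.54 in KO (adjusted p = 2.83e-05, edgeR).

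Among genes that process SREBP or sense sterols, 5 of 9 fell in KO and none rose, beside the same shares of all genes. They included TMEM97 (-0.37 ± 0.08) and MBTPS1, the first protease that cuts SREBP (-0.34 ± 0.07). Of 15 other isoprenoid and sterol genes, 3 rose and 2 fell in KO, with LBR, a sterol reductase of the nuclear membrane, at 0.61 ± 0.07 (adjusted p = 5.72e-05, edgeR). Of 7 genes tested among the liver X receptors and their targets, the receptor NR1H2 rose (0.40 ± 0.07) and the receptor NR1H3 fell (-0.72 ± 0.24) in KO. Of 12 proliferation genes, 6 fell in KO and none rose. These counts too stand beside 14.7% of all genes called higher and 15.4% lower.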
